A study of Saccharomyces cerevisiae with 36 samples.

Results

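The response of budding yeast to the proline analogue AzC (azetidine-2-carboxylic acid) was compared directly with its response to heat in a strain that carries HSF1 in a cassette. The comparison rests on 6 of the 36 poly(A)-selected RNA-seq libraries of the study, chosen by their titles: 3 libraries of cells given 10 mM AzC for 1 h at 25 °C and 3 libraries of cells shaken at 37 °C for 15 min. A further 3 untreated libraries of the strain served as the common reference point. All cultures had grown in YPD at 25 °C before treatment, so the groups differ in agent, temperature and length of exposure together, and the effects of these cannot be told apart. By its genotype label the strain is MATa his3∆1 leu2∆0 ura3∆0 LYS2 met15∆0, with the HSF1 locus replaced by a cassette that holds HSF1+ and 3 chaperone genes under constitutive promoters (YDJ1 under PADH1, HSC82 under PTEF1 and SSA2 under PTDH3) with kanMX. A strain labelled as carrying the cassette without HSF1 (hsf1∆), a wild type (WT) and a strain labelled msn2/4∆ (msn2::hphMX4 msn4::natMX4) were treated alike, with 3 libraries per strain and condition. The 12 groups were called triplicates by the submitters, without a statement that they came from separate cultures, so p-values measure only the spread between these samples.

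AzC is taken up as proline and built into new proteins, which then fold poorly, whereas heat unfolds proteins that already exist. In budding yeast the heat shock factor Hsf1 drives chaperone genes through heat shock elements, and Msn2 and Msn4 drive the general stress programme of metabolic and antioxidant genes through stress response elements. Heat also lowers the transcripts of ribosomal proteins and ribosome biogenesis factors.

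Library totals over the whole study ran from 8159203 to 99558095 counts, with a median of 13193876. AzC replicates 1 and 2 of the HSF1 strain were among 4 deep libraries, at 55245832 and 99558095 counts, against 13999625 in AzC replicate 3 and 11233654 to 13553862 after heat. Levels are given as CPM, read counts scaled to a common library size with TMM factors for library composition, and changes as log2 of AzC over heat shock, ± the standard error of the fit, n = 3 against 3. The HSF1 transcript itself was present in the strain: it stood at 149, 163 and 156 CPM after heat and at 117.4, 100.3 and 86.3 CPM after AzC, against 54.7, 57.2 and 54.4 CPM untreated. HSF1 was thus lower after AzC than after heat, without overlap (−0.62 ± 0.13, edgeR adjusted p = 0.000163). In hsf1∆ the HSF1 level was not zero, at 26.7 ± 6.73 CPM after heat and 12.1 ± 3.07 CPM after AzC (SD, n = 3). The libraries labelled msn2/4∆ held 1.16 to 1.83 CPM of MSN2 as group means, but 37.4 to 52.9 CPM of MSN4, against 38.4 to 115.4 CPM of MSN4 in WT, so the counts bear out that label for MSN2 only. Counts of YDJ1, HSC82 and SSA2 in the cassette strains mix native and cassette transcripts. The 3 tested marker genes of the other mating type summed to 54 to 76 CPM in the 9 libraries of the strain, where MF(ALPHA)1, the α-factor gene, stayed at or below 0.727 CPM and most of the sum was SAG1.

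Stretches of 90 bases upstream of 8 genes are shown first, as examples of stress response and heat shock elements near them. They were read from the RefSeq R64 genome, the build named by the submitters, in the direction of the gene. Capitals mark a stress response element (AGGGG, or CCCCT on the other strand) or a heat shock element of 2 units (TTCNNGAA or GAANNTTC, each its own reverse complement). HXT5, CTT1 and HSP12 are general stress genes, at chrVIII:296705-296794 on the minus strand, and at chrVII:654234-654323 and chrVI:107002-107091 on the plus strand. HSP26, at chrII:381645-381734, and HSP42, at chrIV:806342-806431, carry both kinds of site, whereas BTN2 (chrVII:772074-772163), CUR1 (chrXVI:843033-843122) and ZPR1 (chrVII:914982-915071) show only heat shock elements, all on the plus strand. This split holds for the 90 bases shown: within 500 bases CTT1 and HXT5 also held 1 heat shock element each.
HXT5: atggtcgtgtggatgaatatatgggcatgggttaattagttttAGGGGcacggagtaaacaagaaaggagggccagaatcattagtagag
CTT1: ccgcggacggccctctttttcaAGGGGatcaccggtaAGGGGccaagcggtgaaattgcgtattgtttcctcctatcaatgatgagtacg
HSP12: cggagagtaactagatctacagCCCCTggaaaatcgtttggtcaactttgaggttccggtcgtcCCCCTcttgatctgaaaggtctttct
HSP26: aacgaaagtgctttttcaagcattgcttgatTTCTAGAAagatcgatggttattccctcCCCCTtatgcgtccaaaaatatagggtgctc
HSP42: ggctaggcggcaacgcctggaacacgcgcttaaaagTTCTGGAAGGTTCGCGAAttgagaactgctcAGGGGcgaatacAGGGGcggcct
BTN2: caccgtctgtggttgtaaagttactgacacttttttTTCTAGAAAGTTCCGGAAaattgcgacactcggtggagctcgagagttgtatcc
CUR1: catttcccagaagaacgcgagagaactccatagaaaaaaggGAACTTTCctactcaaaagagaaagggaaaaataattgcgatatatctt
ZPR1: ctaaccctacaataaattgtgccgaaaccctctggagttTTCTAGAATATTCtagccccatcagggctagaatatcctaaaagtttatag
In HSP42, BTN2 and ZPR1 neighbouring matches overlap, so that a run of alternating units appears as a single capital stretch. The genes shown were picked after their values were seen. Each stretch was placed to hold the most bases in matches of a motif kind set for that gene. The mix of sites in a stretch thus follows in part from its placing. Over the window from 250 bases before to 50 bases after the annotated gene start, 21.6% of 6021 protein-coding genes held a stress response element and 22.6% a 2-unit heat shock element. Of the 551 such genes called lower after AzC than after heat, 45.9% held a stress response element and 21.1% a heat shock element. Of the 630 called higher, 12.4% and 26.3% did. The 2 motifs can overlap only by their ends, and a match says nothing of binding.

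Across 6109 genes tested together, 1304 genes (21.3%) differed at an edgeR adjusted p below 0.05 and by at least 2-fold, 702 of them (11.5%) higher after AzC and 602 (9.85%) lower. By the adjusted p alone, 79 of 81 genes for large-subunit ribosomal proteins were higher after AzC, where 34.7% of all genes were. All 30 listed general stress genes were lower, where 34.8% of all genes were. The gene lists were chosen with earlier results of these data known, so such counts are descriptions and not tests. The median change over all genes was −0.00 on the log2 scale, a centre that scaling to a common library size largely sets. Levels are relative, so a change in total mRNA per cell cannot be seen. AzC and heat libraries did not overlap for 1276 of the 1304 genes. Over all genes every AzC library lay above every heat library in 35.2% and below in 35.2%. Set against the untreated libraries, heat moved 1862 genes past the same limits (30.5%) and AzC 292 (4.78%). These last comparisons share their untreated libraries, so their values are given side by side only; the medians over all genes were 0.034 and 0.005. In RNA from a whole culture, fewer cells with a transcript and less of it per cell cannot be told apart.

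**Figure D1:**
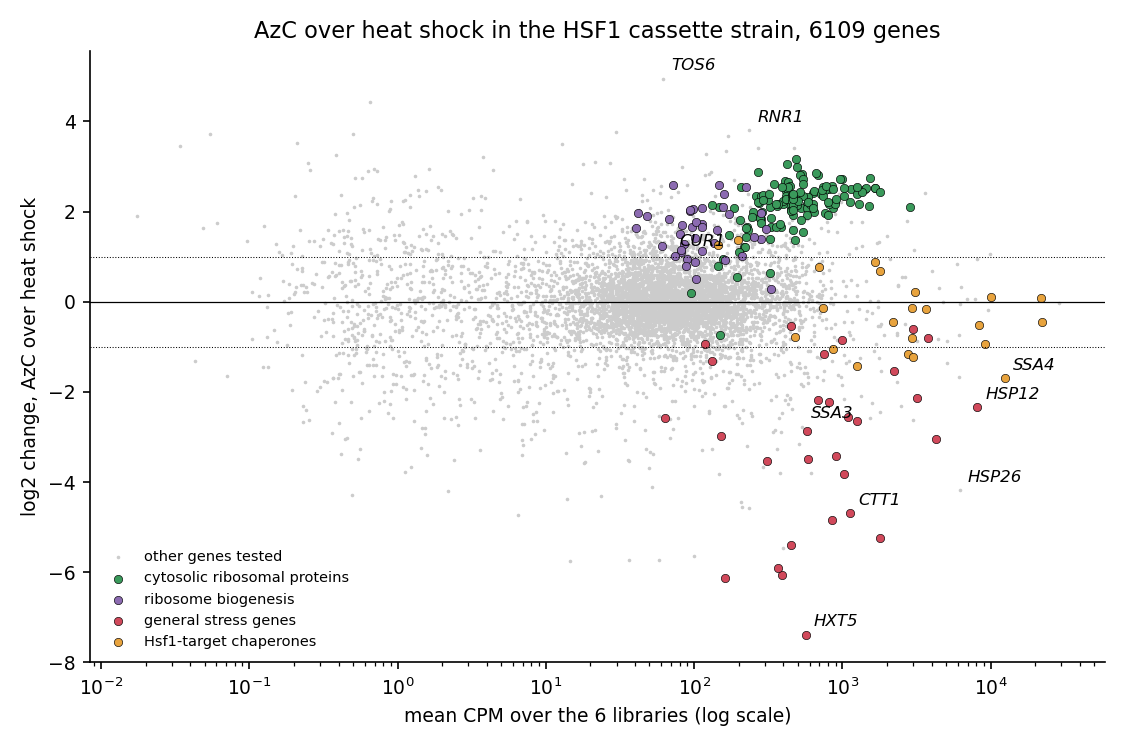
Each point is a gene, with its mean CPM over the 6 libraries on a log axis and its log2 change of AzC over heat shock; dotted lines mark 2-fold. Ribosomal protein genes lie near 2.2 and general stress genes fall to −7.38 at HXT5, while Hsf1-target chaperones lie between 1.37 (CUR1) and −1.70 (SSA4).

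Among called genes without overlap whose mean reached 10 CPM, the 15 largest rises after AzC relative to heat were TOS6, RNR1, HO, INA1, YMR304C-A, HRP1, SCW10, URA1, KAP123, RPL9A, YDR222W, YBR099C, TIR3, RPS26B and SVS1, from 4.95 down to 2.999; without heat replicate 1 INA1 moved from 3.68 to 4.31. RNR1, the large subunit of ribonucleotide reductase, stood at 36.9, 24.7 and 32.5 CPM after heat and at 365, 461 and 488 CPM after AzC, against 642, 659 and 648 CPM untreated. HO, the endonuclease of mating type switching, stood at 2.55, 4.08 and 5.77 CPM after heat and at 43.5, 58.9 and 63.997 CPM after AzC. In both genes every AzC library lay far above every heat library and below every untreated one (untreated HO: 86.3, 96.2 and 99.9 CPM). The 15 deepest falls were HXT5, SPG4, TKL2, GND2, YBR116C, YCL048W-A, YDR034W-B, SIP18, YNR034W-A, NQM1, ALD3, FMP45, CTT1, FMP16 and PAI3, from −7.38 to −4.55. YMR304C-A, YBR099C and YBR116C had no entry in the RefSeq gene table, and as the strand setting of the counting is not given, reads of a gene that overlaps another cannot be told apart.

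Gene lists are described by the number of members that passed an adjusted p of 0.05 with no minimum fold, a limit that 34.7% of all genes passed upward and 34.8% downward. Against untreated cells, the same limit was passed upward by 40% of genes after heat and 23% after AzC, and downward by 36.5% and 21.9%. The Hsf1-target list, 22 chaperone genes driven by Hsf1, rose in full under either treatment, with a median of 2.98 after heat and 2.75 after AzC. Set directly against each other, 5 members were higher after AzC, 11 were lower and 6 did not pass, with a median of −0.30. The summed level of the list was 17874 to 18156 CPM untreated, 123114 to 139175 CPM after heat and 104757, 102131 and 80302 CPM in AzC replicates 1 to 3, so AzC replicate 3 had the lowest chaperone sum of the treated libraries.

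Within the cytosolic Hsp70 system all 4 SSA genes were raised by either treatment, and SSA2, SSA3 and SSA4 were lower after AzC than after heat. SSA4, the most strongly heat-induced Hsp70, stood at 18742, 20654 and 17685 CPM after heat and at 7511, 6197 and 3910 CPM after AzC, against 52.4, 66.1 and 69.3 CPM untreated. It was therefore induced under either treatment, but 3.24-fold less after AzC (−1.70 ± 0.18, edgeR adjusted p = 2.47e-09). SSA3, its inducible relative, stood at 853, 952 and 1003 CPM after heat but at 141, 163 and 105.5 CPM after AzC, against 49.2 to 51.6 CPM untreated. That is a change of −2.77 ± 0.16 (edgeR adjusted p = 1.16e-14), the deepest fall of the 16 members of this list. SSE2, an inducible nucleotide exchange factor, fell by 1.81 ± 0.15 on the same scale. SSA1, an Hsp70 also made without stress, stood at 9018, 10794 and 9200 CPM after heat and at 11103, 10840 and 9294 CPM after AzC, against 747 to 870 CPM untreated, and the treatments overlapped (0.11 ± 0.14, edgeR adjusted p = 0.507). SSA2, which also has a cassette copy, was 5.56-fold above untreated after heat and 4.08-fold after AzC. It was slightly lower after AzC than after heat (−0.45 ± 0.16, edgeR adjusted p = 0.0148). This difference no longer passed without heat replicate 2 (−0.39) or AzC replicate 3 (−0.34).

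Some other Hsp70 partners were higher after AzC, and others were lower. APJ1, a J-protein, stood at 61.6, 101.1 and 93.9 CPM after heat and at 254, 204 and 151 CPM after AzC (1.25 ± 0.25, edgeR adjusted p = 8.29e-05). FES1, an exchange factor that works on Hsp70 bound to misfolded proteins, stood at 501, 583 and 455 CPM after heat and at 1105, 869 and 667 CPM after AzC (0.78 ± 0.16, edgeR adjusted p = 0.000118). In both genes the lowest AzC library lay above the highest heat library. SIS1, an essential J-protein, went the other way (−0.44 ± 0.11). XDJ1, CAJ1 and SWA2 were also lower after AzC, by 1.26-fold, 1.42-fold and 1.89-fold. YDJ1, SSE1, DJP1 and JJJ3 did not pass, though JJJ3 did with replicate numbers as a block (0.67, edgeR adjusted p = 0.0119). Of the 16 members in all, 3 were higher and 8 lower, with a median of −0.18.

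In the Hsp90 system 8 of 14 members were lower after AzC and 2 higher, with a median of −0.21. HSP82, the inducible Hsp90, stood at 8950, 10694 and 9713 CPM after heat and at 7194, 7795 and 5512 CPM after AzC, against 280 to 304 CPM untreated. The groups did not overlap (−0.52 ± 0.16, edgeR adjusted p = 0.00597), but without AzC replicate 3 the change was −0.39 with an adjusted p of 0.0537. HSC82, the constitutive Hsp90 with a cassette copy, overlapped between the treatments (0.09 ± 0.18, edgeR adjusted p = 0.661). AHA1, the activator of the Hsp90 ATPase, fell by 1.04 ± 0.09, from 1103 to 1209 CPM after heat to 514 to 622 CPM after AzC. The co-chaperones CPR6 (−0.80), HCH1 (−0.78) and CDC37 (−0.62) were also lower. PPT1, a phosphatase that acts on Hsp90, was higher by 1.13 ± 0.33 (edgeR adjusted p = 0.00371), and TAH1, a cofactor of Hsp90, by 0.69 ± 0.14. CNS1, a co-chaperone, did not pass in the main fit but did with the replicate block (0.50, edgeR adjusted p = 0.00412). It also passed without heat replicate 1 (0.80, edgeR adjusted p = 0.015) and with replicates 2 and 3 alone (0.69, edgeR adjusted p = 0.000898).

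Of the 5 genes of aggregate handling 2 were higher after AzC, 2 were lower and 1 did not pass. HSP104, the disaggregase, stood at 10943, 13175 and 11698 CPM after heat and at 7612, 6467 and 4645 CPM after AzC (−0.94 ± 0.17, edgeR adjusted p = 2.23e-05). HSP26, a small heat shock protein, stood at 10232, 12439 and 12455 CPM after heat but at 569, 798 and 566 CPM after AzC, against 6.99, 11.6 and 16.7 CPM untreated. HSP26 was thus 18.2-fold lower after AzC than after heat (−4.18 ± 0.32, edgeR adjusted p = 4.74e-12), while still 54.8-fold above untreated cells. HSP42, the other small heat shock protein and a sequestrase of the cytosol, stood at 2708, 3531 and 2978 CPM after heat and at 3445, 2913 and 2019 CPM after AzC, and its groups overlapped (−0.14 ± 0.20, edgeR adjusted p = 0.558). BTN2, a sequestrase that gathers misfolded proteins, stood at 1283, 1666 and 1206 CPM after heat and at 2809, 2346 and 1462 CPM after AzC. The lowest AzC library fell inside the heat range. The rise of 0.67 ± 0.23 (edgeR adjusted p = 0.0108) no longer passed without heat replicate 3 (0.58) or AzC replicate 1 (0.46). CUR1, a relative of BTN2 that directs misfolded proteins to the nucleus, stood at 96.7, 118.6 and 115.2 CPM after heat and at 342, 302 and 208 CPM after AzC, without overlap (1.37 ± 0.18, edgeR adjusted p = 2.33e-07). The summed level of the 5 genes was 25262, 30929 and 28453 CPM after heat and 14777, 12826 and 8900 CPM after AzC.

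**Figure D2:**
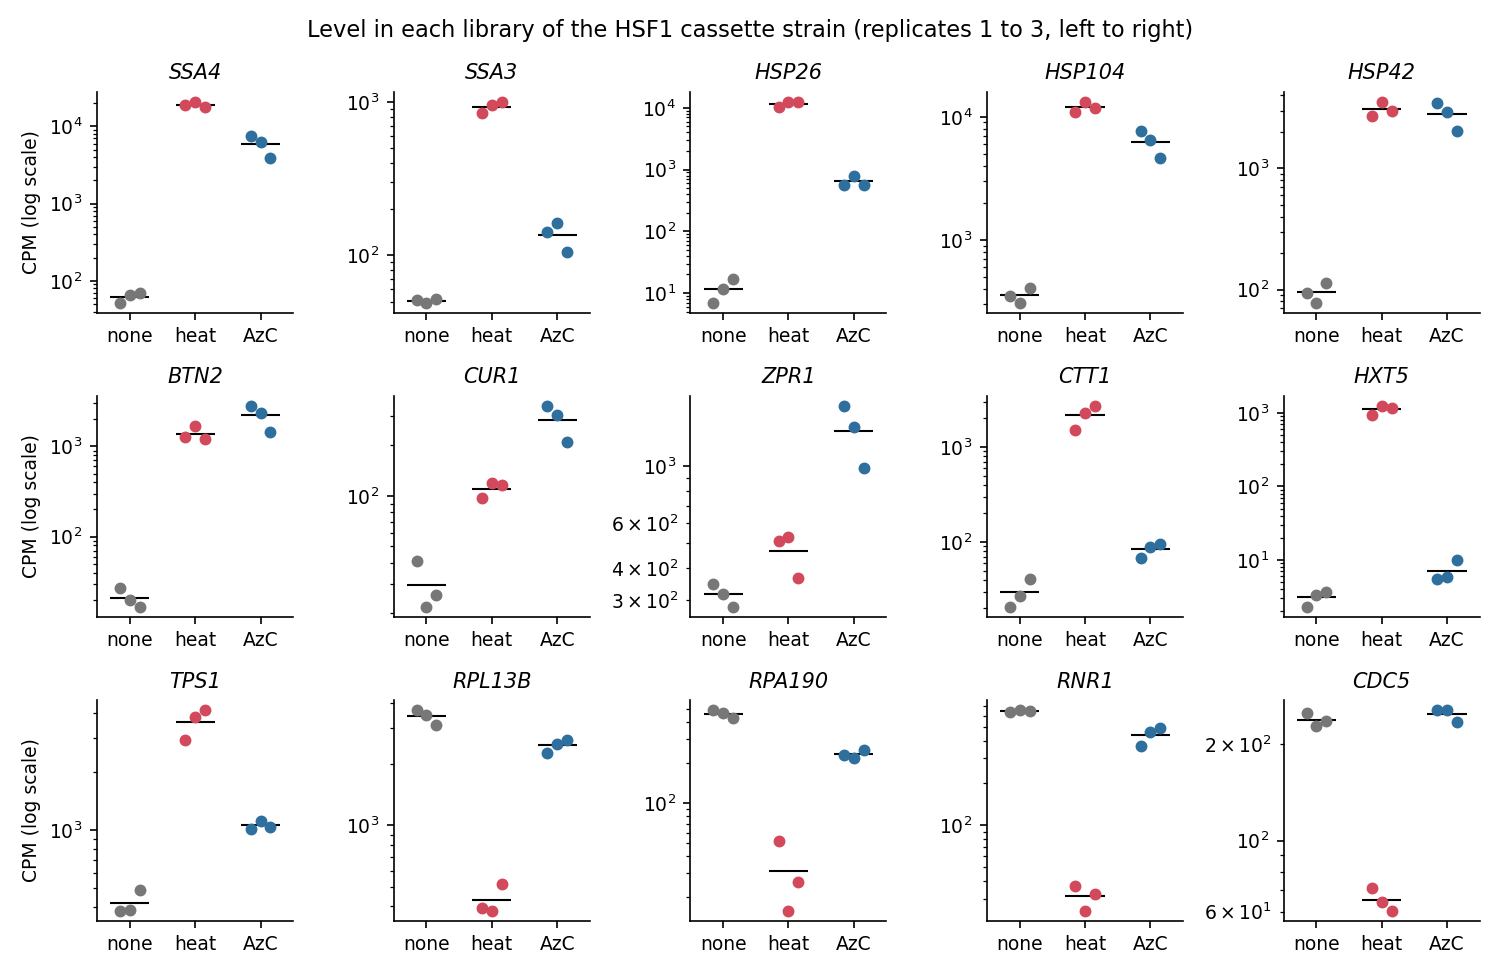
CPM on log axes of 15 genes in the 9 libraries of the HSF1 cassette strain, untreated (grey), after heat shock (red) and after AzC (blue), with replicates 1 to 3 from left to right and bars at the means. SSA4, HSP104 and HSP42 are higher under either treatment, CUR1 and ZPR1 are highest after AzC, CTT1 and HXT5 are highest after heat, and RPL13B, RPA190 and RNR1 are lowest after heat with AzC between heat and untreated.

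Chaperones outside the cytosol were mostly less raised by AzC. Of 11 mitochondrial chaperone genes 6 were lower after AzC and 1 higher, with a median of −0.53. HSP60, the chaperonin of the matrix, stood at 4001, 4513 and 4139 CPM after heat and at 1790, 1918 and 1687 CPM after AzC (−1.23 ± 0.12, edgeR adjusted p = 4.64e-10). Its partner HSP10 fell by 1.44 ± 0.09 with no overlap either. In contrast SSC1, the mitochondrial Hsp70, did not pass (−0.01 ± 0.10, edgeR adjusted p = 0.922), at 4473 to 5396 CPM after heat and 4141 to 5438 CPM after AzC. Of 15 genes of folding in the endoplasmic reticulum none was higher after AzC and 11 were lower, with medians of 0.76 after heat and 0.11 after AzC against untreated cells. KAR2, the Hsp70 of that compartment, stood at 7068, 6885 and 5682 CPM after heat and at 4019, 3734 and 2980 CPM after AzC (−0.87 ± 0.13, edgeR adjusted p = 1.32e-06). MPD1, a disulfide isomerase relative, was at 203 to 244 CPM after heat but at 49.3 to 55.4 CPM after AzC, within the 47.8 to 60.2 CPM of untreated cells.

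The cytosolic chaperonin CCT and prefoldin, which fold actin and tubulin, moved the other way. Of these 14 genes AzC left 13 higher than heat did and none lower, with a median of 0.55. Heat had lowered 12 of them (median −0.53), whereas 8 rose and 4 fell after AzC (median 0.25). CCT3, a chaperonin subunit, stood at 280, 254 and 244 CPM after heat and at 484, 500 and 442 CPM after AzC, against 353 to 383 CPM untreated, so the treatments lay on opposite sides of the untreated level. All 33 proteasome genes rose under either treatment, with medians of 0.51 after heat and 0.58 after AzC. In the direct comparison 13 of the 33 were higher after AzC and none was lower (median 0.12). PRE2, a catalytic subunit, stood at 417 to 429 CPM after heat and at 489 to 552 CPM after AzC (0.33 ± 0.06, edgeR adjusted p = 1.80e-05). UBI4, the stress-inducible polyubiquitin gene, was lower after AzC (−0.74 ± 0.12), among 22 ubiquitin quality control genes of which 7 were higher and 6 lower. Fitted with the compared groups alone, 4 of the 22 were higher.

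The general stress genes set the treatments furthest apart. Each of the 30 listed genes was lower after AzC than after heat, with no overlap in any of them (35.2% of all genes). Of the 30, 25 passed the 2-fold limit. The median was −2.76: heat had raised all 30 (median 4.28) and AzC 28 (median 1.46). HXT5, a hexose transporter of slow-growing cells, stood at 954, 1245 and 1173 CPM after heat and at 5.46, 5.87 and 9.96 CPM after AzC, against 2.30, 3.34 and 3.63 CPM untreated. This was the deepest fall among the genes named, 167-fold (−7.38 ± 0.30, edgeR adjusted p = 1.65e-17). CTT1, the cytosolic catalase, stood at 1515, 2302 and 2703 CPM after heat and at 68.2, 88.9 and 95.4 CPM after AzC, against 20.9 to 40.9 CPM untreated (−4.69 ± 0.32, edgeR adjusted p = 5.51e-13). TKL2 and GND2, enzymes of the pentose phosphate pathway, changed by −6.06 ± 0.28 and −5.90 ± 0.20. HSP12, a small membrane-associated stress protein, was higher in either state, at 12366 to 15306 CPM after heat and 2469 to 2818 CPM after AzC, against 183 to 548 CPM untreated (−2.34 ± 0.49, edgeR adjusted p = 0.000127). The smallest fall was that of DDR48, at −0.54, and RTC3 stood at −0.84 ± 0.21. The 30 genes together made up 55215, 68265 and 73234 CPM after heat, 14642, 15266 and 14656 CPM after AzC and 5060 to 6732 CPM untreated. Within the heat group replicate 1 held the lowest level of HXT5, CTT1 and the sum of the list.

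Carbohydrate reserve and oxidant defence genes followed the same order. All 7 trehalose genes were lower after AzC (median −1.18), though all 7 had risen after AzC too. TPS1, the trehalose phosphate synthase, stood at 2900, 3806 and 4157 CPM after heat and at 1017, 1119 and 1033 CPM after AzC, against 384 to 493 CPM untreated (−1.78 ± 0.18, edgeR adjusted p = 1.01e-09). TSL1, a regulatory subunit of that complex, fell by 1.67 ± 0.25. Of 13 glycogen genes 9 were lower and 1 higher, among them PGM2, the main phosphoglucomutase, at 4095 to 5680 CPM after heat and 727 to 990 CPM after AzC (−2.62 ± 0.24). Of 23 antioxidant genes 17 were lower and 3 higher, with a median of 0.94 after heat and 0.15 after AzC. TSA2, a peroxiredoxin, stood at 371, 389 and 437 CPM after heat and at 16.6, 18.6 and 20.1 CPM after AzC (−4.44 ± 0.11, edgeR adjusted p = 1.52e-22). SOD1, the copper and zinc superoxide dismutase, stood at 2270 to 2676 CPM after heat, and its 960.5 to 1116 CPM after AzC lay below the 1137 to 1228 CPM of untreated cells.

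Lists of mitochondrial genes and of acetate and glucose synthesis were mostly lower after AzC too. Of 35 respiratory chain genes 27 were lower after AzC and 1 higher (median −0.84), and of 69 mitochondrial ribosome genes 50 were lower and none higher (median −0.27). COX6, a cytochrome oxidase subunit, stood at 106.4, 118.8 and 140 CPM after heat and at 53.0, 56.2 and 64.1 CPM after AzC, against 65.0 to 76.6 CPM untreated (−1.08 ± 0.13, edgeR adjusted p = 4.35e-08). Of 18 genes of gluconeogenesis, the glyoxylate cycle and acetate use 14 were lower and 1 higher (median −1.44). That list held both ALD4, the mitochondrial acetaldehyde dehydrogenase (−2.57 ± 0.22), and ICL1, isocitrate lyase, which was the member higher after AzC (0.62 ± 0.11). Of 21 autophagy genes 15 were lower and 3 higher (median −0.69).

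Genes of ribosome production were the largest group higher after AzC. Of 81 genes for proteins of the large cytosolic subunit 79 were higher and 1 lower (median 2.23), and of 57 for the small subunit 56 were higher and none lower (median 2.22). RPL13B stood at 394, 381 and 516 CPM after heat and at 2272, 2510 and 2623 CPM after AzC, against 3115 to 3681 CPM untreated (2.52 ± 0.15, edgeR adjusted p = 2.34e-14). The AzC libraries thus lay between the other conditions, nearer to untreated. All 138 ribosomal protein genes together held 179980 to 202458 CPM untreated, 27045, 23642 and 32760 CPM after heat and 128049, 122697 and 144800 CPM after AzC. The medians against untreated cells were −2.77 and −2.81 for the 2 subunits after heat, and −0.56 and −0.58 after AzC. The member that was lower after AzC was RPL15B, a paralog that heat had raised, at 183 to 196 CPM after heat and 110.6 to 114.5 CPM after AzC (−0.73 ± 0.06, edgeR adjusted p = 4.79e-12). RPL22B did not pass (0.19 ± 0.26, edgeR adjusted p = 0.526), with AzC at 94.4 to 112.5 CPM and heat at 74.5 to 100.7 CPM. RPS9A did not pass in the main fit but did with the replicate block (0.58, edgeR adjusted p = 0.0232). It also passed with the compared groups alone (0.55, edgeR adjusted p = 0.0081) and with replicates 2 and 3 alone (0.70, edgeR adjusted p = 0.000554). Ribosomal protein paralogs are near-identical in many pairs, and how the counting split shared reads is not given, so the value of a single paralog is uncertain.

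Factors that build the ribosome moved alike but varied more between heat libraries. Of 40 ribosome biogenesis genes 35 were higher after AzC and none lower (median 1.62), where heat had lowered all 40 (median −2.48) and AzC 19 (median −0.90). UTP20, a component of the small subunit processome, stood at 23.0, 16.7 and 21.5 CPM after heat and at 117.3, 118.2 and 134.1 CPM after AzC (2.60 ± 0.16, edgeR adjusted p = 4.48e-14). NSR1, a nucleolin-like protein, stood at 525, 221 and 143 CPM after heat and at 451, 289 and 337 CPM after AzC, and its groups overlapped (0.28 ± 0.56, edgeR adjusted p = 0.676). Of 8 RNA polymerase I genes 7 were higher (median 1.29). RPA190, its largest subunit, stood at 52.2, 15.7 and 25.5 CPM after heat and at 228, 215 and 248 CPM after AzC, against 429 to 495 CPM untreated (2.89 ± 0.37, edgeR adjusted p = 1.01e-07; 3.49 without heat replicate 1). Heat replicate 1 was the highest of the heat libraries for NSR1 and RPA190. All 18 tRNA synthetase genes tested and 27 of 30 translation factor genes were higher after AzC (medians 1.10 and 1.01), including TIF11, which encodes initiation factor eIF1A (1.49 ± 0.09). The lower member among the translation factors was CAM1 (−0.41 ± 0.10).

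**Figure D3:**
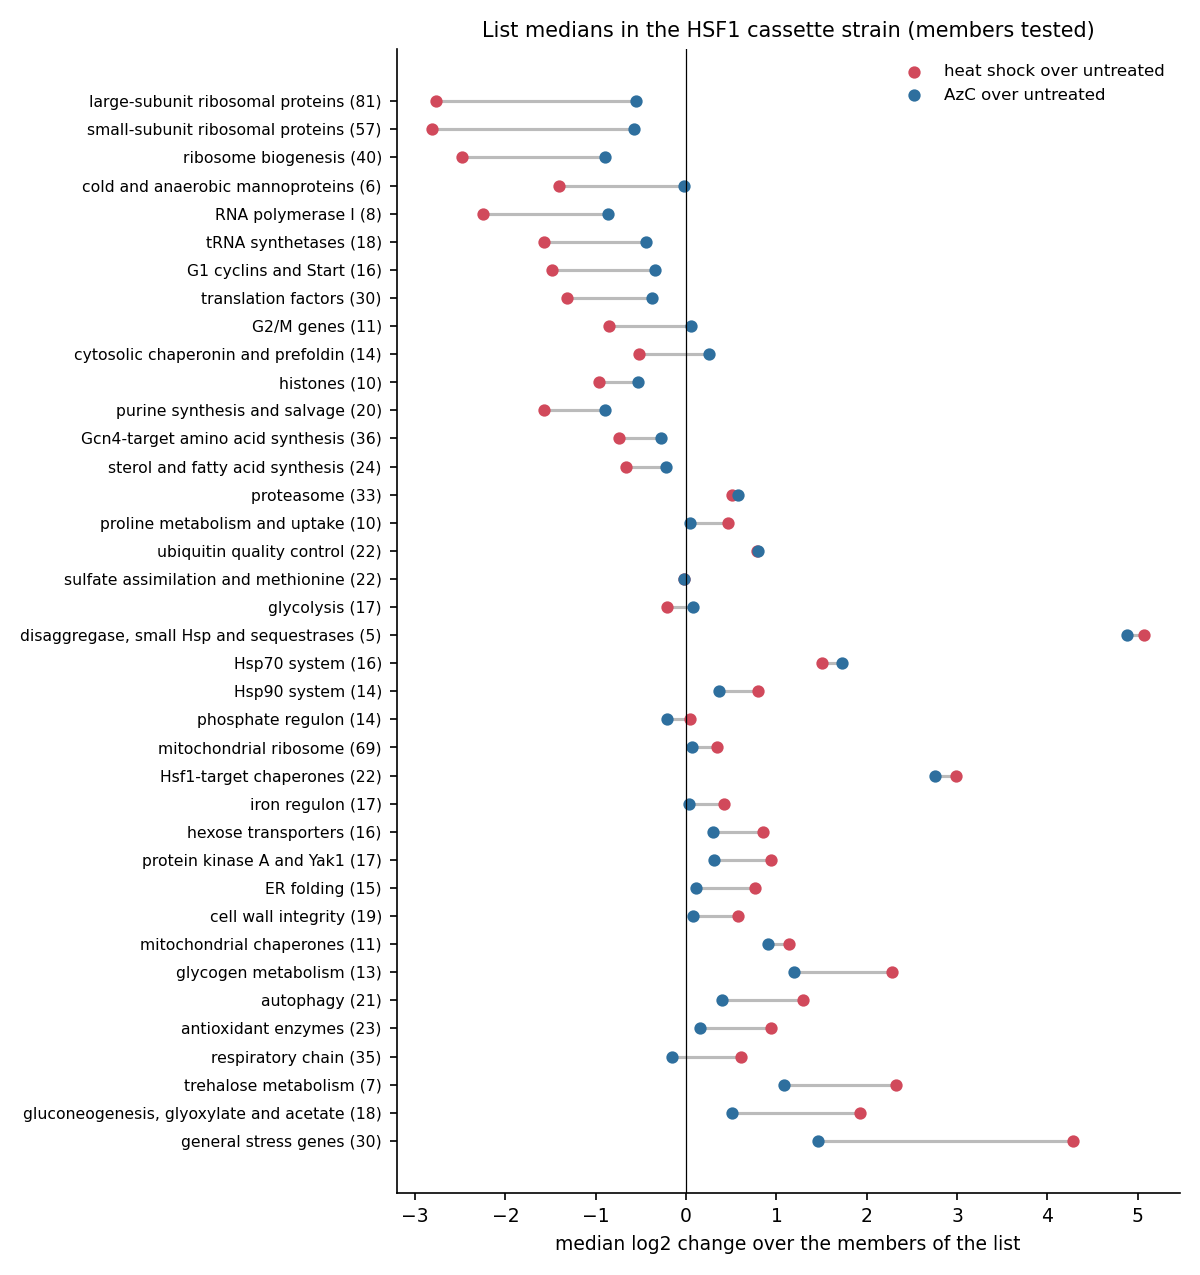
Median log2 change over the members of 38 gene lists, for heat shock over untreated (red) and AzC over untreated (blue), ordered by the median of AzC over heat shock, with the number of members tested in brackets. The points nearly coincide for the proteasome (0.51 and 0.58), lie far apart for general stress genes (4.28 and 1.46) and the large ribosomal subunit (−2.77 and −0.56), and the comparisons share their untreated libraries.

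Cell cycle genes were mostly higher after AzC than after heat. All 11 genes of G2 and mitosis were higher after AzC than after heat with no overlap, as were 35.2% of all genes (median 0.87), with medians of −0.85 after heat and 0.05 after AzC against untreated cells. CDC5, the polo kinase, stood at 71.4, 64.5 and 60.5 CPM after heat and at 256, 255 and 234 CPM after AzC, against 228 to 251 CPM untreated (1.92 ± 0.08, edgeR adjusted p = 2.42e-17). Of 16 genes of G1 cyclins, Start and S phase entry 13 were higher and 1 lower (median 1.08). CLN2, a G1 cyclin, stood at 11.0, 10.8 and 14.1 CPM after heat and at 70.0, 81.6 and 86.3 CPM after AzC, against 119.2 to 130.5 CPM untreated (2.73 ± 0.13, edgeR adjusted p = 3.38e-16). The lower member was CLN3, the cyclin upstream of CLN2 (−0.53 ± 0.17, edgeR adjusted p = 0.00718), and without heat replicate 1 no member was lower. Of 10 histone genes 8 were higher and 1 lower (median 0.53). All 6 MATa marker genes were higher after AzC as well (median 0.99), with summed levels of 622 to 716 CPM after heat and 1353 to 1470 CPM after AzC. MFA2, a gene of the a-factor pheromone, changed by 1.60 ± 0.10.

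Cell surface genes did not move as a block. Of 19 cell wall integrity genes 5 were higher after AzC and 11 lower (median −0.52). PIR3, a cell wall glycoprotein, stood at 231, 260 and 229 CPM after heat and at 21.3, 26.4 and 28.1 CPM after AzC (−3.26 ± 0.20, edgeR adjusted p = 4.72e-14). PST1, a cell wall protein induced by wall damage, fell by 1.87 ± 0.10, and its 228 to 237 CPM after AzC lay just above the 179 to 218 CPM of untreated cells. In contrast 4 of 6 mannoproteins of the Tir and Dan groups were higher and 1 lower (median 1.38), led by TIR3 at 3.20 to 4.16 CPM after heat and 29.0 to 33.4 CPM after AzC (3.06 ± 0.17). TOS6, a putative cell wall protein, stood at 3.38, 2.80 and 5.49 CPM after heat and at 104.9, 111.2 and 141 CPM after AzC, against 142 to 188 CPM untreated. It was the gene with the largest rise among those named, 30.9-fold (4.95 ± 0.20, edgeR adjusted p = 9.76e-18). Of 24 sterol and fatty acid genes 17 were higher and 1 lower (median 0.40), with ERG3, a sterol desaturase, at 77.7 to 101.2 CPM after heat and 275 to 298 CPM after AzC.

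Because AzC is a proline analogue, the 10 genes of proline metabolism and uptake were examined one by one. PUT1 and PUT2, the enzymes of proline breakdown, did not pass between the treatments (0.08 ± 0.16 and 0.05 ± 0.08) and had risen under each. PUT1 stood at 42.1, 60.1 and 58.3 CPM after heat and at 51.1, 61.7 and 56.3 CPM after AzC, against 13.3 to 17.2 CPM untreated. PUT3, the activator of both, was slightly higher after AzC (0.27 ± 0.07, edgeR adjusted p = 0.000959). Of the synthesis enzymes, PRO1, the first step, was higher (1.57 ± 0.14), at 23.5 to 35.7 CPM after heat and 83.9 to 87.8 CPM after AzC, against 114.97 to 128.6 CPM untreated. PRO2 was also higher (0.49 ± 0.06), and PRO3 did not pass (0.14 ± 0.06, edgeR adjusted p = 0.0582) but did with the replicate block (edgeR adjusted p = 0.0311). The permeases PUT4 (−1.20 ± 0.28), GAP1 (−1.20 ± 0.18) and AGP1 (−1.24 ± 0.15) were lower after AzC, each with AzC levels that overlapped the untreated ones, and GNP1 did not pass (0.07 ± 0.07). PUT4 takes up proline and GAP1 is the general amino acid permease.

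Other amino acid genes differed by list. Of 22 genes of sulfate assimilation and methionine synthesis 7 were higher after AzC and 7 lower (median 0.03). Of 36 Gcn4-target biosynthesis genes 23 were higher and 6 lower (median 0.42), but only 1 of them was above and 21 below the untreated level after AzC. ARO4, of aromatic amino acid synthesis, stood at 54.3, 37.5 and 44.0 CPM after heat and at 229, 214 and 251 CPM after AzC, against 377 to 416 CPM untreated (2.35 ± 0.18, edgeR adjusted p = 2.67e-12). ARG4, of arginine synthesis, was lower (−1.02 ± 0.09), so the list held both directions. LYS2, the marker named in the genotype, was higher by 0.85 ± 0.10, at 69.6 to 90.1 CPM after heat and 137 to 142 CPM after AzC. Of 20 purine genes 13 were higher and 5 lower (median 0.43), and IMD2, of guanine nucleotide synthesis, led the rises at 24.6 to 26.5 CPM after heat and 143 to 171 CPM after AzC (2.58 ± 0.13).

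A small group of transcripts was higher after AzC than in either other condition. Picked after their values were seen, 9 genes lay at least 2-fold above both heat and untreated cells at an adjusted p below 0.05 with a mean of at least 10 CPM, and 1 lay as far below. CUR1 and APJ1, described above, were among the 9. ZPR1, a zinc finger protein known as a chaperone of elongation factor eEF1A, stood at 1722, 1430 and 987 CPM after AzC, at 510, 530 and 365 CPM after heat and at 348, 317 and 283 CPM untreated. Its AzC level was 2.94-fold above heat (1.56 ± 0.22, edgeR adjusted p = 6.10e-07) and 4.37-fold above untreated. ICY2 stood at 135.5, 125.6 and 85.0 CPM after AzC, at 25.9, 41.7 and 49.6 CPM after heat and at 10.8 to 11.6 CPM untreated (1.57 ± 0.29, edgeR adjusted p = 2.37e-05). AzC replicate 3 was the lowest AzC library for ZPR1, ICY2, CUR1 and APJ1, and no AzC library of these 4 reached down to the heat range. TIP1, a cell wall mannoprotein, stood at 1154, 873 and 820 CPM after AzC and at 410 to 514 CPM after heat (1.08 ± 0.13). The other members were NCA3, FSH1, YNR068C and YBR099C. YBR099C stood at 64.9, 45.0 and 34.3 CPM after AzC and at 5.11 to 6.25 CPM in the 6 other libraries. PHO84, the phosphate transporter, was the gene below both, at 403, 372 and 358 CPM after AzC, 1257, 632 and 520 CPM after heat and 680 to 836 CPM untreated; it overlaps the annotated RNA gene YNCM0001W.

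The same contrast was taken in the other strains. AzC over heat shock called 1060 genes (17.4%) in WT, 829 (13.6%) in the strain labelled msn2/4∆ and 1977 (32.4%) in hsf1∆. A term for the difference between strains called 1.69% of genes between the HSF1 strain and WT, 60 higher (0.982%) and 43 lower (0.704%). Against the strain labelled msn2/4∆ it called 485 genes (7.94%), 233 higher (3.81%) and 252 lower (4.13%). Against hsf1∆ it called 600 (9.82%), 187 higher (3.06%) and 413 lower (6.76%). The lower count was 266 without HSF1 heat replicate 1 and 272 without hsf1∆ heat replicate 2. The medians of this difference over all genes were 0.02, 0.021 and −0.042 in that order. A positive value means that AzC over heat shock was larger in the HSF1 strain. List members counted below as higher or lower against another strain are so in this difference, not in level.

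Against WT 4.7% of all genes passed upward and 4.53% downward without a minimum fold. AzC over heat shock was higher in the HSF1 strain for 9 of 20 purine genes and lower for 1. Of 14 phosphate regulon genes 6 were lower in this difference and none higher. Of 16 genes of G1 cyclins and Start 5 were higher and none lower. Of 30 general stress genes 2 were higher and 3 lower in this difference, and of 22 Hsf1-target chaperones 2 were lower. Of 15 endoplasmic reticulum folding genes 9 were lower (median −0.49), and 11 of 36 Gcn4-target genes were higher. TOS6 showed a difference of 2.15 ± 0.25 (edgeR adjusted p = 2.44e-06), with WT at 22.8 ± 2.72 CPM after heat and 159 ± 18.7 CPM after AzC (SD, n = 3). YRO2, a plasma membrane protein, went in opposite directions: it was higher after AzC in the HSF1 strain (1.15 ± 0.17) and lower in WT (−0.67), with 390 ± 51.6 CPM after heat and 245 ± 15.1 CPM after AzC in WT. With library size alone as the scaling the split of called genes turned from 60 higher and 43 lower to 47 higher and 52 lower. Without heat replicate 1 of the HSF1 strain 2.55% of genes were called against WT, 1.67% higher.

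Against the strain labelled msn2/4∆, AzC over heat shock was lower in the HSF1 strain for 19 of 30 general stress genes (median −2.29). It was higher for none, where 17.3% of all genes passed upward and 18.5% downward. Of 23 antioxidant genes 16 were lower and none higher. In the libraries labelled msn2/4∆ TKL2 stood at 8.52 ± 0.918 CPM after heat and 6.49 ± 1.06 CPM after AzC (SD, n = 3), where the HSF1 strain held 550 to 983 CPM after heat and 10.8 to 12.8 CPM after AzC. The difference between strains was −5.66 ± 0.38 for TKL2 (edgeR adjusted p = 5.81e-12). CTT1 stood at 34.5 ± 3.93 and 24.9 ± 2.92 CPM there (difference −4.22 ± 0.42). HXT5 stood at 129.7 ± 3.26 CPM after heat in those libraries and at 6.88 ± 2.36 CPM after AzC, a difference between strains of −3.13 ± 0.37. Of 22 Hsf1-target chaperones 2 were higher and 3 lower. HSP42 showed a difference of 0.00 ± 0.29 and HSP104 one of −0.21 ± 0.24 (edgeR adjusted p = 0.523).

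**Figure D4:**
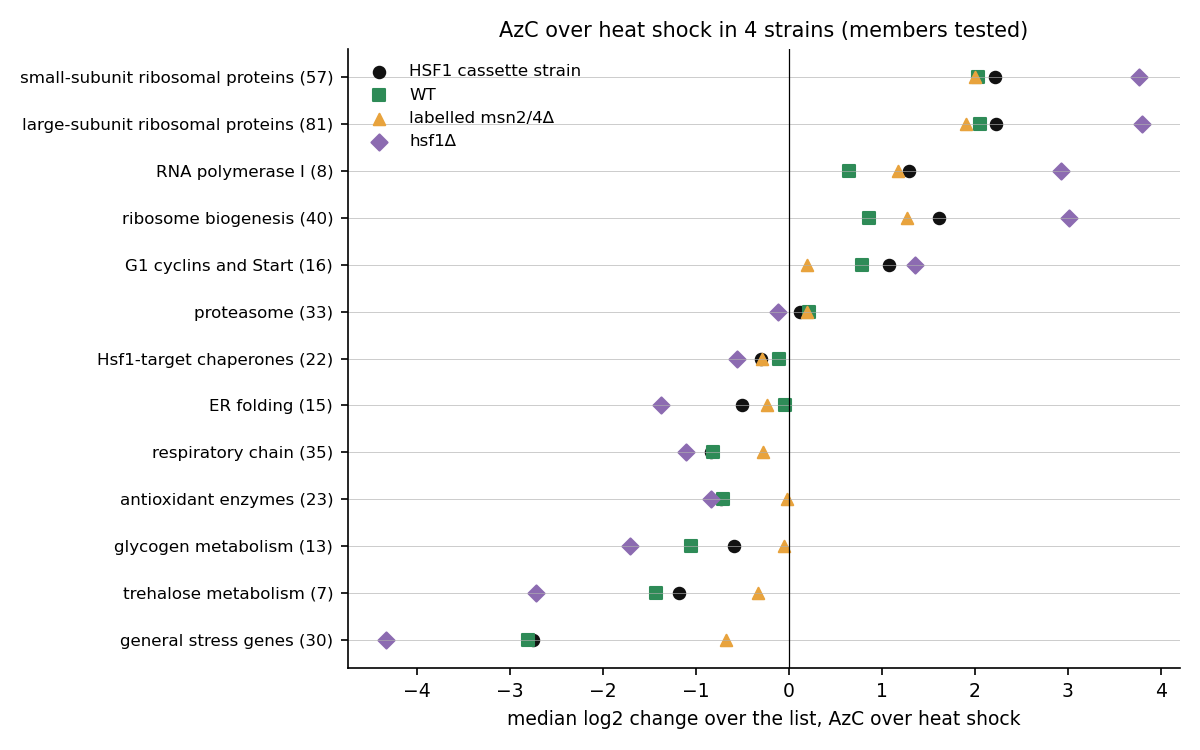
Median log2 change of AzC over heat shock over the members of 13 lists in the HSF1 cassette strain (black circles), WT (green squares), the strain labelled msn2/4∆ (orange triangles) and hsf1∆ (purple diamonds). General stress genes lie at −2.76, −2.81, −0.68 and −4.34 in that order, and the large ribosomal subunit at 2.23, 2.06, 1.91 and 3.80.

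Against hsf1∆, whose label names the cassette without HSF1 and whose HSF1 counts were low but not zero, members of the chaperone, stress and ribosome lists differed. AzC over heat shock was higher in the HSF1 strain for 10 of the 22 Hsf1-target genes and lower for 7. Of the 5 genes of aggregate handling 4 were higher in this difference and none lower (17.6% of all genes passed upward and 21.2% downward). HSP42 stood at 943 ± 218 CPM after heat but 88.9 ± 21.1 CPM after AzC in hsf1∆, beside 83.8 ± 13.9 CPM untreated (SD, n = 3). In the HSF1 strain its levels after heat and AzC had overlapped, and the difference between strains was 3.27 ± 0.30 (edgeR adjusted p = 4.27e-09). HSP82 stood at 632 ± 98.2 CPM after heat, 30.2 ± 6.89 CPM after AzC and 28.8 ± 2.33 CPM untreated in hsf1∆, a difference of 3.87 ± 0.24. HSP104 differed by 2.41 ± 0.24 and CUR1 by 2.62 ± 0.28. In hsf1∆ the mean AzC level of each of these 4 genes was within 1 SD of the AzC group from the untreated mean, and the heat level lay above both. BTN2, in contrast, showed no called difference (−0.73 ± 0.35, edgeR adjusted p = 0.0946), and in hsf1∆ it stood at 8.01 ± 1.48 CPM after heat and 21.2 ± 5.32 CPM after AzC.

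**Figure D5:**
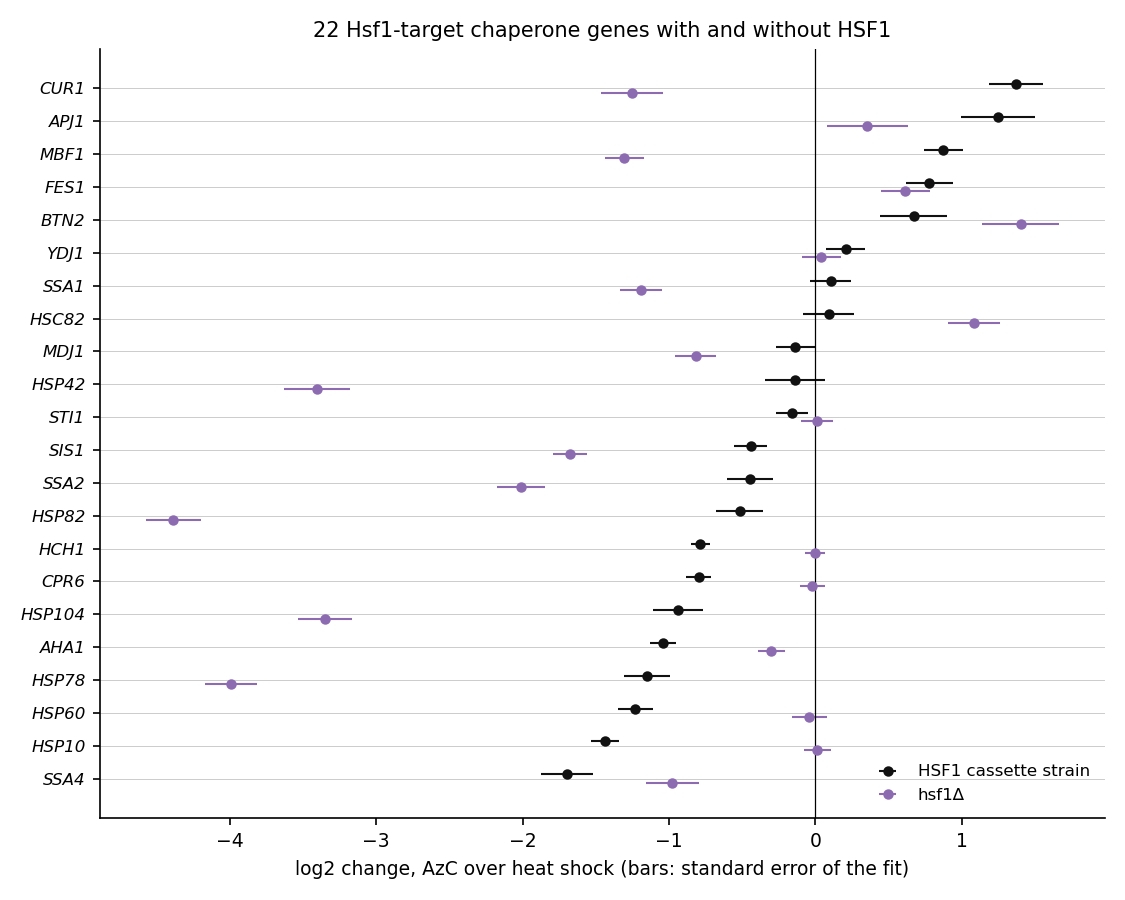
Log2 change of AzC over heat shock, with the standard error of the fit as bars, for the 22 Hsf1-target chaperone genes in the HSF1 cassette strain (black) and hsf1∆ (purple). HSP82 lies at −0.52 and −4.39, HSP42 at −0.14 and −3.41, and CUR1 at 1.37 and −1.25, whereas BTN2 lies at 0.67 and 1.40.

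General stress and ribosomal genes differed from hsf1∆ too. AzC over heat shock was higher in the HSF1 strain for 20 of 30 general stress genes and lower for none (median 1.14). It was also higher for all 7 trehalose genes. In hsf1∆ CTT1 stood at 5294 ± 1637 CPM after heat and 73.9 ± 18.9 CPM after AzC, with 72.6 ± 22.04 CPM untreated (SD, n = 3), a difference of 1.47 ± 0.40 (edgeR adjusted p = 0.00467). HSP12 in hsf1∆ stood at 169 ± 111.4 CPM after AzC and 442 ± 386 CPM untreated, where the HSF1 strain held 2469 to 2818 CPM after AzC. For 77 of 81 genes of the large ribosomal subunit AzC over heat shock was lower in the HSF1 strain (median −1.51). The same held for 54 of 57 genes of the small subunit (median −1.57). RPS26B stood at 23.1 ± 15.4 CPM after heat and 1131 ± 147 CPM after AzC in hsf1∆, beside 1205 ± 42.6 CPM untreated. In the HSF1 strain RPS26B stood at 97.3, 66.1 and 109.8 CPM after heat and at 767, 637 and 863 CPM after AzC, and the strains differed by −2.57 ± 0.46 (edgeR adjusted p = 8.79e-05), or by −3.16 without hsf1∆ heat replicate 3.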

How the data were processed

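The authors deposited a table of whole-number read counts per gene for the 36 libraries. Per the submitters' processing notes, Trim Galore, FastQC, STAR and Salmon were used with the R64 build; their settings, and the strand setting of the counting, are not given in the labels, headers or notes at hand. Per the labels' protocols the libraries were poly(A)-selected. Of 7126 genes, 6048 had an entry in the RefSeq R64 table. After edgeR's filterByExpr, 6109 genes were fitted with TMM factors over all 36 libraries (12 group means, 24 residual degrees of freedom) with edgeR 4.0.16 in R 4.3.3 (glmQLFit and glmQLFTest), with Benjamini-Hochberg adjustment over all of them. A call needed an adjusted p below 0.05 and 2-fold; members of lists were counted without the fold. DESeq2 1.42.0, other scalings, a replicate block and left-out libraries were alternatives. Named genes were those checking the strain, the 15 largest changes in each direction with a mean of at least 10 CPM, members of lists with the smallest p or farthest from their median, and the largest differences between strains; KAR2, SSC1, TSL1, SOD1, ICL1, CLN3 and DDR48 were added as list members after their values were seen, as were the genes higher or lower after AzC than in both other conditions. The members and lists were chosen with earlier results of these data known. Tested on simulated counts for AzC over heat shock with 200 changed genes among 6090, the fit found 98% of 2-fold and 100% of 4-fold changes at the adjusted p, and 52% and 100% with the 2-fold limit, with 6.6% false at the adjusted p. The changed genes lay above a floor of mean counts, were split evenly up and down, and were far fewer than the 4246 that passed in the data. Simulated libraries were unpaired, so these rates need not hold for the data or for low counts. Deviations of same-numbered AzC and heat libraries from their group means correlated at 0.277, 0.172 and 0.198 in the HSF1 strain. Those of differently numbered libraries correlated at −0.262 to 0.041. The replicate block took the numbers to pair the samples, but the main fit did not use this pairing. No promoter table was at hand, so promoters were read from the R64 genome.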

Additional observations from a re-analysis of the deposited data

Results flagged for a closer look

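Results were marked here when the change of AzC over heat shock differed between the HSF1 strain and another strain by the edgeR test of that difference. Values are the HSF1 strain minus the other strain, on the log2 scale, for the 5 highest and 5 lowest called genes whose mean reached 10 CPM.

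Against WT 1.69% of the genes tested differed. The highest were TOS6 (2.15), ADH2 (2.12), AAH1 (2.11), YRO2 (1.82) and HPT1 (1.80). ADH2 and AAH1 encode an alcohol dehydrogenase and adenine deaminase, and HPT1 a purine salvage enzyme. Without WT heat replicate 1 AAH1 fell to 0.90 (edgeR adjusted p = 0.334) and HPT1 to 1.30 (edgeR adjusted p = 0.071), so neither was called. The lowest were FIT2 (−1.90), LSO1 (−1.82), YCL048W-A (−1.74), PAI3 (−1.72) and SIP18 (−1.53), of which FIT2 and LSO1 respond to iron supply. SIP18 was at −0.93 without WT AzC replicate 3 (edgeR adjusted p = 0.382), and YCL048W-A lost its call under 12 alternatives.

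Against the strain labelled msn2/4∆ 7.94% differed. The highest were ADH2 (4.16), YDR222W (3.33), TOS6 (3.20), snR19 (2.94) and RNR1 (2.59). The lowest were YNR034W-A (−5.71), TKL2 (−5.66), SIP18 (−5.57), ALD3 (−5.31) and GND2 (−5.19). The small nuclear RNA snR19 had no entry in the RefSeq gene table, and poly(A) selection bears on its count.

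Against hsf1∆ 9.82% differed. The highest were HSP82 (3.87), HSP12 (3.61), RTC3 (3.53), HSP42 (3.27) and YJL144W (3.24). Without hsf1∆ AzC replicate 2 HSP12 was at 4.28. The lowest were RPL22B (−3.19), RCK1 (−3.11), RPS24B (−2.62), RPS0B (−2.58) and RPS26B (−2.57).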

How the results depend on the processing

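Under the other scalings, filters, tools and subsets that kept the 2-fold limit, the 1304 genes called between AzC and heat shock became 1181 to 1446. Without a fold minimum 4246 genes were called (2118 higher, 2128 lower), and for the differences between strains 9.23% of genes against WT (4.7% and 4.53%), 2185 genes against the strain labelled msn2/4∆ (1055 and 1130) and 2369 against hsf1∆ (1074 and 1295). Leaving out each library gave 1194 to 1446 genes (628 to 802 higher, 554 to 644 lower), 1.3% to 2.55% against WT (0.765% to 1.67% higher, 0.472% to 0.944% lower), 434 to 593 against the strain labelled msn2/4∆ (209 to 297, 225 to 296) and 426 to 802 against hsf1∆ (160 to 251, 266 to 551). Some counts of list members by the adjusted p moved. With DESeq2 3 proteasome genes were lower. With the compared groups alone 4 ubiquitin quality control genes were higher, not 7. The highest share against WT came without HSF1 heat replicate 1. With the 4 deep libraries thinned, 1296 genes were called. With the replicate block 1319 genes were called (2.08% against WT, 505 against the strain labelled msn2/4∆ and 666 against hsf1∆). JJJ3 (0.67), CNS1 (0.50), PRO3 (0.14) and RPS9A (0.58) then passed the adjusted p, and no other gene named by rule crossed that limit. By the adjusted p alone, of 3490 values recomputed for named genes none reversed past the test, 41 no longer passed and 16 newly passed. Moves across the 2-fold limit were not counted here, and the cause was not tested. Calls of AAH1, HPT1, SIP18 and YCL048W-A against WT were each lost under 2 or more alternatives. With 11233654 counts in the shallowest of the 6 libraries, genes near 1 CPM rest on few counts.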
